A study of Mus musculus with 38 samples.

Results

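A set of 371 of the 10819 promoter clusters in the soleus muscle of mice was highest in the HiT group, the mice kept warm while fasted. The members were selected on their measured levels. In experiment #1 the mean of the 4 HiT libraries had to reach 1 TPM (tags scaled to the depth of the library) and 1.5 times the mean of each of the other 5 groups. They made up 3.43% of the clusters. Every comparison of HiT with another group was therefore fixed by the selection and is given below as a description without a test. Tests were made only between groups other than HiT, in experiment #1 and in mice of experiment #2, which the selection never used.

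Transcription start sites were measured by nAnT-iCAGE, in which capped 5′ ends of RNA are sequenced without amplification. There were 38 libraries, 1 for each male C57BL/6J mouse. The study asked which promoters change in fasting-induced torpor, a daily fall in metabolism and body temperature of fasted mice in the cool. In experiment #1, Pre mice (4 libraries) had free food on day 1, Mid mice (8) were sampled on day 2 after food was withdrawn in the cool so that they entered torpor, and Post mice (4) on day 3 after food was returned. In 3 groups torpor was prevented on day 2. HiT mice (4) stood at a high ambient temperature, Fed mice (4) kept their food in the cool, and Dep mice (4) had no food in the cool and were touched whenever they began to enter torpor. Experiment #2 held 2 Pre, 5 Mid and 3 Post libraries and no HiT, Fed or Dep library, so that experiment and group cannot be told apart when HiT is set against it. The design text of the series gives food to HiT mice, and the sample labels name starvation for Fed although that text calls it fed. The methods of the study describe HiT as fasted and Fed as fed, which is used here. The levels of 2 genes whose promoters follow feeding state were as the methods describe. *Pdk4*, a fasting-induced kinase that blocks glucose oxidation, stood at 2979 to 5706 TPM in HiT, 251 to 752 in Fed and 325 to 554 in Pre. *Fasn*, the fatty acid synthase, stood at 2.8 to 5.4 TPM in HiT and 34.9 to 150 in Fed.

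Resting muscle fibers of the adult no longer divide, and replication-dependent histone genes are transcribed mainly while a cell copies its DNA. Tissue macrophages, fibroblasts and the cells of vessels lie between the fibers and contribute their RNA to a whole-muscle library. Stretch, loading and injury of a muscle are known for raising genes of sarcomere repair such as *Ankrd1* and *Xirp2*, matrix genes such as *Tnc*, and small heat shock proteins. In such bulk RNA, fewer cells of a type and less RNA in each cell cannot be told apart.

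The promoters of 11 members are shown here because the results below turn on them. The first 6 follow the largest ratios of HiT to the next group, the next 3 the highest HiT levels among members with a RefSeq promoter, and the last 2, *Hist1h3b* and *Cd68*, were chosen after their values were seen. *Mustn1* would have been among them, but its highest peak lay 283 bases downstream of the RefSeq start. Each runs 5′ to 3′ from 130 bases before to 20 bases after the start of the gene in RefSeq (GRCm38.p6, the mm10 build of the deposited table). Capitals mark a match, on either strand, to 1 of the motifs given below. For *Birc5*, *Col3a1* and *Hspb1* the highest CAGE peak lay 81, 91 and 81 bases downstream of the RefSeq start.
Mybph, chr1:134193318-134193467 (+), myosin-binding protein H, with TATAAA on the opposite strand: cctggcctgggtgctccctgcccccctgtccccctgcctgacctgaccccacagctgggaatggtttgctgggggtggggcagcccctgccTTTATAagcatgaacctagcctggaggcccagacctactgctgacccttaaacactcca
Tnc, chr4:64046917-64047066 (-), tenascin C: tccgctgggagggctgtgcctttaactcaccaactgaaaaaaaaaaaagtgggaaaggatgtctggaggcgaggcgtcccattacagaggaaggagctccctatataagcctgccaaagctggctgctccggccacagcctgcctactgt
Cdc20, chr4:118437324-118437473 (-), cell division, with CCAAT matches: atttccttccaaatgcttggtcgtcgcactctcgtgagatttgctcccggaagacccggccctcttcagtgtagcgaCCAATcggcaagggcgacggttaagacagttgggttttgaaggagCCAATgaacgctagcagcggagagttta
Birc5, chr11:117849107-117849256 (+), survivin: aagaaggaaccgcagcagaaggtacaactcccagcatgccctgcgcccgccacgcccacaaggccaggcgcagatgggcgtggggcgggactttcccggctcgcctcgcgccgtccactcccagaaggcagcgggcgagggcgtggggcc
Hist1h3g, chr13:23535288-23535437 (+), histone H3 (H3c8 in RefSeq): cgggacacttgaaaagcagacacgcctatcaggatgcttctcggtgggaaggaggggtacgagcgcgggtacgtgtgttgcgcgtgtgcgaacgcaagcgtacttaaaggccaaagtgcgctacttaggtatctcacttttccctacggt
Hist1h4b, chr13:23756807-23756956 (+), histone H4 (H4c2): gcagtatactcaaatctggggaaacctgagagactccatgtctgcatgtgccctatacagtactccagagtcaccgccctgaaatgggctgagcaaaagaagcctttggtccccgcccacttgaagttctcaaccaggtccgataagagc
Xirp2, chr2:67445872-67446021 (+), with a TGANTCA match: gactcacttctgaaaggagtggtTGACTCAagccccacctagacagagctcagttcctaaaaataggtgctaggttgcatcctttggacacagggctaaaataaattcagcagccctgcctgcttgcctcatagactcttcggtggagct
Col3a1, chr1:45311408-45311557 (+), type III collagen, with a TATAAA match: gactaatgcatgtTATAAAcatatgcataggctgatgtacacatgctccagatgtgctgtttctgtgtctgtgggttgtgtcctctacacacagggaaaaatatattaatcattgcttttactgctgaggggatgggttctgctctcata
Hspb1, chr5:135887789-135887938 (+), heat shock protein HSP25: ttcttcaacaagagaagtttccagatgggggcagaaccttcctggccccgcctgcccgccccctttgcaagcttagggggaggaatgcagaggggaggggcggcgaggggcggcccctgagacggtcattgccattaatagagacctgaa
Hist1h3b, chr13:23752215-23752364 (+), histone H3 (H3c2), with matches to 3 of the motifs: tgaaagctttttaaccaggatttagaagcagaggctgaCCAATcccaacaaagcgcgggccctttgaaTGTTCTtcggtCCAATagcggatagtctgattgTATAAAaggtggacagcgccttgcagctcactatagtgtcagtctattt
Cd68, chr11:69666151-69666300 (-), macrophage marker, with CCAAT and TGANTCA matches: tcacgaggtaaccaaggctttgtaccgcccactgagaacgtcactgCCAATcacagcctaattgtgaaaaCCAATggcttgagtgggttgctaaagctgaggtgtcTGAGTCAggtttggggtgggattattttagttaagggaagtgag
TATAAA is the TATA box and CCAAT the site of NF-Y, while TGANTCA, with any base at N, is that of AP-1 and AGAACA a motif of steroid receptors. Of the 296 members with a gene, 201 matched a RefSeq promoter and 95 did not. In the whole 300 bases from 250 before to 50 after the start, TATAAA stood in 26.4% of these 201 and in 7.67% of the 6640 promoters of all clusters. For the 43 histone promoters the share was 60.5%, and for the other 158 members 17.1%. Counted only where it started 50 to 15 bases before the start, TATAAA stood in 11.4% of members and 2.21% of all. That share was 27.9% for histone promoters and 6.96% for the other members. CCAAT stood in 86.0% of the histone promoters, 39.9% of the other members and 38.7% of all. GAGGAAGT, a site of the myeloid factor PU.1, stood in 10.1% of the members that are no histone genes, in none of the histone promoters and in 2.79% of all. Among the 10 macrophage promoters with a sequence it stood in 3. CACGTG, the E-box, was found in 4.98% of members and 10.7% of all. TGANTCA stood in 7.96% and 4.55%, and AGAACA in 15.9% and 11.4%. The remaining motifs were close between members and all promoters, with TGACGTCA (CRE) at 2.99% and 3.42%, GTAAACA (forkhead) at 2.49% and 2.45%, TTCNNGAA (heat shock element core) at 7.96% and 6.7%, TTCNNNGAA (STAT) at 5.47% and 6.23%, and GAAANNGAA (interferon response core) at 8.46% and 6.4%. The median GC content was 57.3% in members against 62.0% in all, and it was 44.0% in histone and 46.0% in macrophage promoters. A match to letters is a description of the sequence and not of binding.

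Of the 371 members, 296 lay within 500 bp of the annotated 5′ end of a gene and belonged to 291 genes, of which most encode proteins (272 clusters) and some are processed pseudogenes (13). The other 75 had no annotated start within that distance, with 27 between genes, 23 in introns on the same strand and 11 on the opposite strand, and 10 and 4 in exons. The ratio of the HiT mean to the next highest group mean had a median of 2.11 (quartiles 1.71 and 3.4). It was at least 2 in 201 members, at least 5 in 56 and at least 10 in 14. The HiT mean itself ran from 1.51 to 1585 TPM with a median of 18.4. The next highest group was Dep in 130 members, Fed in 121, Pre in 54, Post in 37 and Mid in 29. In 153 members all 4 HiT libraries lay above each of the 24 other libraries of experiment #1, which was so in 1.42% of all clusters, a share that the selection itself sets. At the threshold of 1.5 the members *Gm6063* (1.501) and *Fam49b* (1.505) stood just inside with an unannotated cluster on chromosome 4 (1.508), while unannotated clusters at 1.493 and 1.492 stood just outside. Just inside the level of 1 TPM were *Gm6180* (1.512 TPM), an unannotated cluster (2.37) and *Crct1* (3.179), and just outside were *Gm8399* (0.5356), *Ctrb1* (0.4284) and an unannotated cluster (0.3397).

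**Figure D1:**
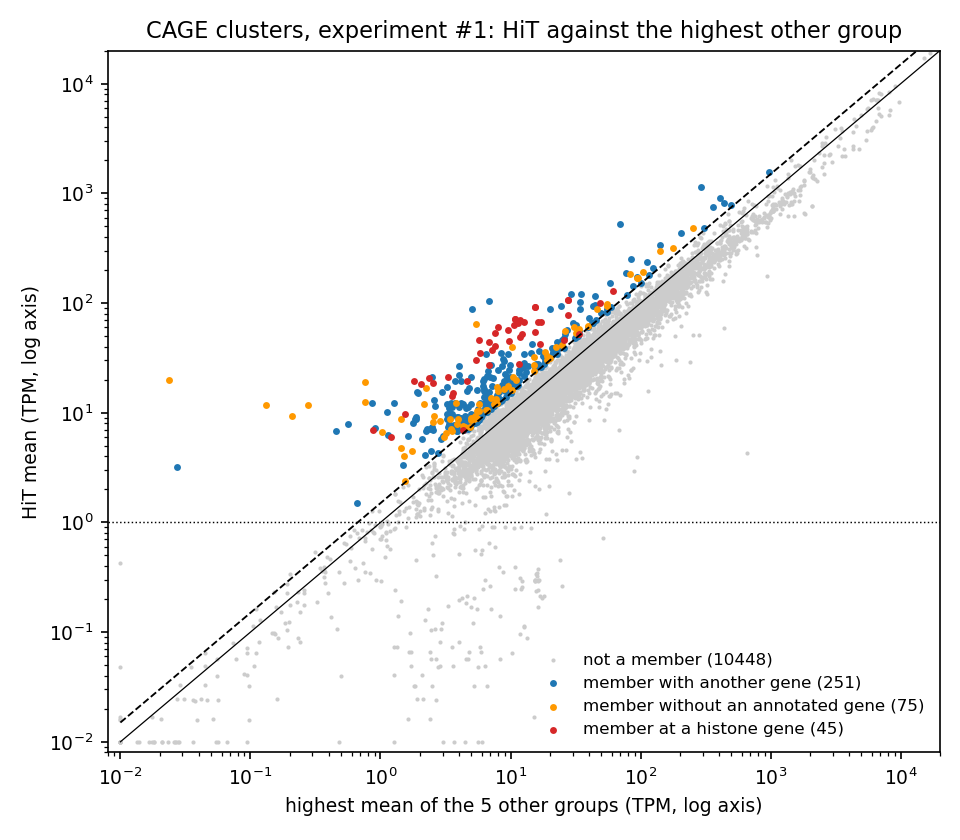
Each point is a CAGE cluster of experiment #1, with the highest mean of the 5 other groups on the x axis and the HiT mean on the y axis, both in TPM on log axes with values under 0.01 drawn at 0.01. Members lie above the dashed line (1.5 times) and the dotted line (1 TPM).

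Tags in clusters numbered 18257657 to 39176649 per library in experiment #1, with 28416006 to 30003804 in HiT, and 9359994 to 20914855 in experiment #2. No pair of libraries within a group agreed within sampling noise. Slow muscle fiber markers were detected in every library, which the label of soleus requires, with a summed level of 6503 to 12452 TPM in HiT and 10754 to 18022 in the other groups of experiment #1. Neutrophil markers (4 of 10 genes with a cluster) summed to 117 TPM in Dep_1 and to at most 1.74 in the other libraries of experiment #1, HiT included. In experiment #2 Mid_11 held 7.92 TPM of them and 5521 TPM of red blood cell markers, of which the other 9 libraries of that experiment held at most 2800. The sample codes of some libraries end in letters whose meaning the labels do not give, and those of all HiT libraries do not. With only libraries of the latter kind (2 to 4 a group) the rule took 308 clusters, of which 301 were members.

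The HiT mice differed among themselves. Among members with a gene, HiT_1 was the highest HiT library in 277 of 296 and HiT_3 the lowest in 208. Their median level over the next group mean was 3.23 in HiT_1, 2.45 in HiT_2, 1.42 in HiT_3 and 1.64 in HiT_4. Members without a gene ran the other way, since HiT_1 was the lowest HiT library in 48 of 75 and the medians were 0.457, 1.5, 2.7 and 2.06. These 75 summed to 1596, 2915, 3867 and 4867 TPM in HiT_1 to HiT_4, and the factors of TMM scaling ran in the opposite order at 1.18, 1.02, 0.879 and 0.679. After TMM scaling the rule took 446 clusters, which held 370 of the 371 members. When the rule was applied to 3 HiT libraries and the library left out was then read, it lay above each of the 5 other group means in 232 of 292 members for HiT_1 (79.5%, against 45.6% of all clusters). For HiT_2 the count was 328 of 333 (98.5%, against 25.1%), for HiT_3 318 of 401 (79.3%, against 10.8%) and for HiT_4 374 of 425 (88.0%, against 6.86%). The other group means had entered the rule, so the shares over all clusters are given only for reference.

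**Figure D2:**
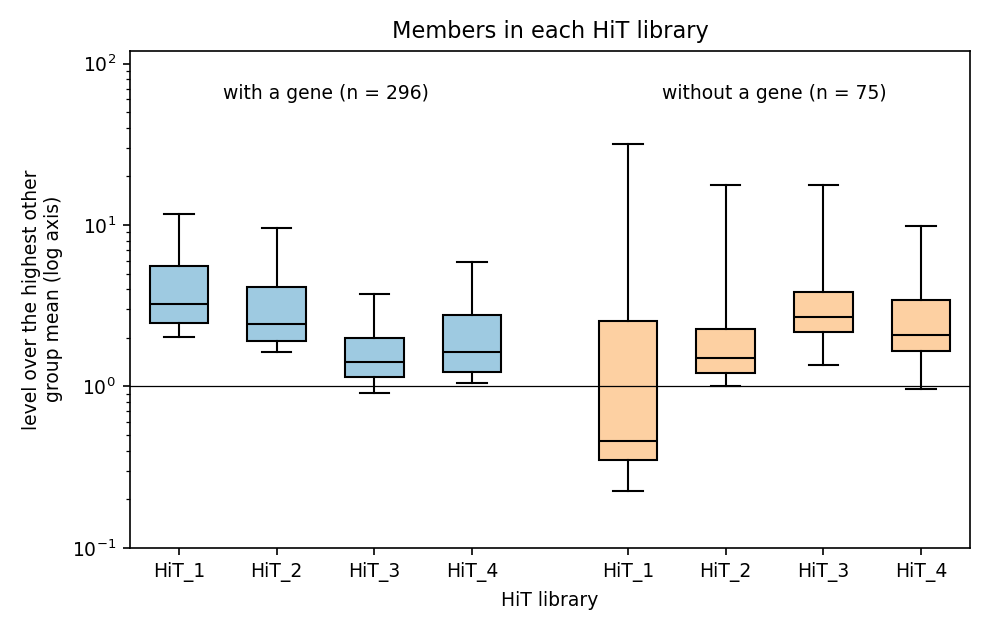
Level of each member in a HiT library divided by the highest mean of the 5 other groups (log axis), for 296 members with a gene and 75 without. Boxes give median and quartiles and whiskers the 5th and 95th percentiles over members. The medians fall from 3.23 in HiT_1 to 1.42 in HiT_3 with a gene and rise from 0.457 to 2.7 without one.

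Several members are genes of muscle. Of the 4 described first, only *Ankrd1* is on the list of mechanical load and injury genes. *Ankrd1*, a mechanosensitive repeat protein of the sarcomere, stood at 677, 643, 461 and 331 TPM in HiT_1 to HiT_4. The 4 Pre libraries held 29.4, 34.6, 28.9 and 34.4 TPM, and the 8 Mid libraries 45.6 to 107 with a median of 65.1. In Post the levels were 37.5, 46.7, 42.7 and 50.2 TPM, in Fed 45.5, 46.4, 74.8 and 53.0, and in Dep 54.6, 107, 65.3 and 52.4. All 4 HiT libraries thus stood above the 24 others, of which Mid_2 and Dep_2 were the highest. *Mybph*, a myosin-binding protein found in some muscle fibers, stood at 102, 106, 85.3 and 59.2 TPM, against a median of 1.78 and a maximum of 11.6 (Fed_1) in the other 24. *Mustn1*, a small nuclear protein of muscle and skeletal tissue in regeneration, stood at 1529, 1391, 931 and 761 TPM against at most 353. *Myog*, the differentiation factor myogenin, stood at 33.3, 24.6, 21.9 and 19.4 TPM against at most 8.9. None of these 4 promoters overlapped between HiT and the other libraries.

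*Xirp2*, an actin-binding Xin repeat protein of striated muscle, was the most abundant member with 1922, 2181, 1120 and 1116 TPM. Its groups overlapped, because the highest other library (Post_4) held 1130. Of the 19 clusters of the list of mechanical load and injury genes, 4 were members (*Ankrd1*, *Xirp2*, *Nes* and *Runx1*), and the median ratio over the list was 0.906, against 0.782 over all clusters. *Hspb1*, the small heat shock protein HSP25, stood at 1151, 856, 579 and 439 TPM against at most 417 (Mid_5). Its processed pseudogene *Hsp25-ps1* followed it at 664, 496, 305 and 262 TPM, and tags of the near-identical copies may be assigned to either. *Hspb1* was the only member among 19 clusters of heat shock and chaperone genes, whose median ratio was 0.971. *F2rl1*, a protease-activated receptor, stood at 21.5, 18.3, 11.3 and 10.5 TPM against at most 2.84.

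Matrix promoters were highest in HiT across much of a list of 23 genes. *Tnc*, tenascin C of matrix under strain, stood at 159, 126, 52.3 and 84.7 TPM, against 2.04 to 11.9 with a median of 3.74 in the 24 others. *Postn*, periostin, stood at 379, 260, 179 and 198 TPM against at most 107 (Fed_3). *Timp1*, an inhibitor of matrix proteases, stood at 19.7, 16.1, 8.27 and 8.74 TPM against at most 4.94. *Col3a1*, the chain of type III collagen, stood at 1465, 922, 550 and 731 TPM, and here Fed_2 came close at 542. *Cthrc1*, a secreted protein of active fibroblasts, stood at 38.2, 18.8, 8.11 and 18.8 TPM against at most 3.63, and the matrix protease *Mmp19* at 19.3, 14.3, 6.42 and 9.17 against at most 2.0. HiT_3 was the lowest HiT library in each of these 6. Of 24 clusters of the matrix list, 12 were members and 20 had the HiT mean above each other group mean, compared with 16.1% of all clusters, and the median ratio was 1.5. *Col1a1* was no member (ratio 1.4), and *Sparc* stood at 1.15. *Fn1*, fibronectin, and *Vim*, the intermediate filament vimentin, were members with ratios of 1.6 and 2.42. Of 10 clusters of fibroblast markers only *Col3a1* was a member, and no cluster of tendon markers (0 of 9) was.

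All macrophage markers with a cluster were members. These were 14 of the 20 genes on the list, and their median ratio was 3.4. Their summed level was 664, 442, 220 and 283 TPM in HiT_1 to HiT_4, 50.9 to 152 in the 24 other libraries of experiment #1 and 68.4 to 135 in experiment #2, so that no other library reached the lowest HiT library. *Lyz2*, lysozyme, stood at 211, 121, 67.0 and 90.4 TPM against 13.2 to 49.4 with a median of 27.2. *Cd68*, a lysosomal protein of macrophages, stood at 23.7, 22.9, 10.8 and 11.6 TPM against at most 4.37, and the protease *Ctss* at 36.6, 22.7, 10.3 and 18.4 against at most 5.21. The complement chain *C1qa* stood at 33.9, 25.6, 12.1 and 15.3 TPM against at most 7.99. *Mrc1* and *Cd163*, receptors of resident macrophages, had smaller ratios of 1.87 and 1.76. *Spi1*, which encodes PU.1, stood at 18.1, 14.5, 6.2 and 10.1 TPM against at most 4.52. Antigen presentation genes stood beside them. *H2-Ab1* of MHC class II held 145, 103, 48.9 and 76.1 TPM against at most 35.9, and *Cd74*, the invariant chain, 317, 197, 101 and 140 against at most 92.1. The chemokine *Ccl2* held 24.2, 21.4, 19.7 and 13 TPM against at most 9.23 (Pre_1), and it was 1 of 4 members among 6 chemokine clusters. Neutrophil markers were not among them, with 0 of 4 clusters as members and a sum of 0.261 to 0.951 TPM in HiT. No gene of the lymphocyte list had a cluster in the table, and endothelial markers gave 1 member of 9 clusters (*Cldn5*).

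Histone genes with symbols of the form of *Hist1h3b* were grouped after the values were seen. Histone genes with other symbols were not counted. Of 58 clusters of this histone group 45 were members, 40 of them on chromosome 13 between 21715968 and 23763723 and 5 on chromosome 3. By type they were 2 of 4 clusters of H1, 14 of 16 of H2A, 11 of 13 of H2B, 11 of 12 of H3 and 7 of 13 of H4. *Hist1h3b* stood at 96.4, 76.7, 24.7 and 46.0 TPM in HiT. The other libraries of experiment #1 ran from 0.702 to 27.3 TPM with a median of 1.74, and the highest was Dep_1, beside 1.65, 1.94 and 1.27 in the other Dep libraries. *Hist1h2ao* stood at 132, 120, 35.9 and 80.8 TPM in HiT, 45.7 in Dep_1 and 99.7 in Mid_11 of experiment #2. Over the 45 members the median level was 71.1, 58.2, 22.3 and 38.3 TPM in HiT_1 to HiT_4, 26.3 in Dep_1, 2.93 to 3.43 in the other Dep libraries and 2.09 to 7.16 in the remaining 20. Dep_1 thus stood above HiT_3, and it was also the library with the neutrophil markers. In experiment #2 Mid_11 had a median of 61.9 TPM and the 9 other libraries at most 9.36. The part of other cell types in these libraries was not tested. Histone copies are near-identical in sequence, and the level of a single copy is therefore uncertain.

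Promoters of cell division accompanied the histones at far lower levels. *Ccna2*, cyclin A2, stood at 10.6, 7.8, 3.34 and 5.84 TPM in HiT, at most 0.632 in 23 of the other libraries and 1.56 in Dep_1. *Cdc20*, which activates the anaphase-promoting complex, stood at 17.9, 16.8, 5.47 and 9.33 TPM against at most 2.03 (Dep_1). *Birc5*, survivin, stood at 12.4, 8.8, 4.23 and 5.84 TPM against at most 1.86 (Dep_1). Each of the 3 was also high in Mid_11, at 4.14, 5.49 and 5.13 TPM. Of 15 genes on the cell division list only 4 had a cluster. *Ccna2* and *Birc5* were members, while *Rrm2* and *Pcna*, which act in DNA synthesis, had ratios of 1.23 and 1.13.

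**Figure D3:**
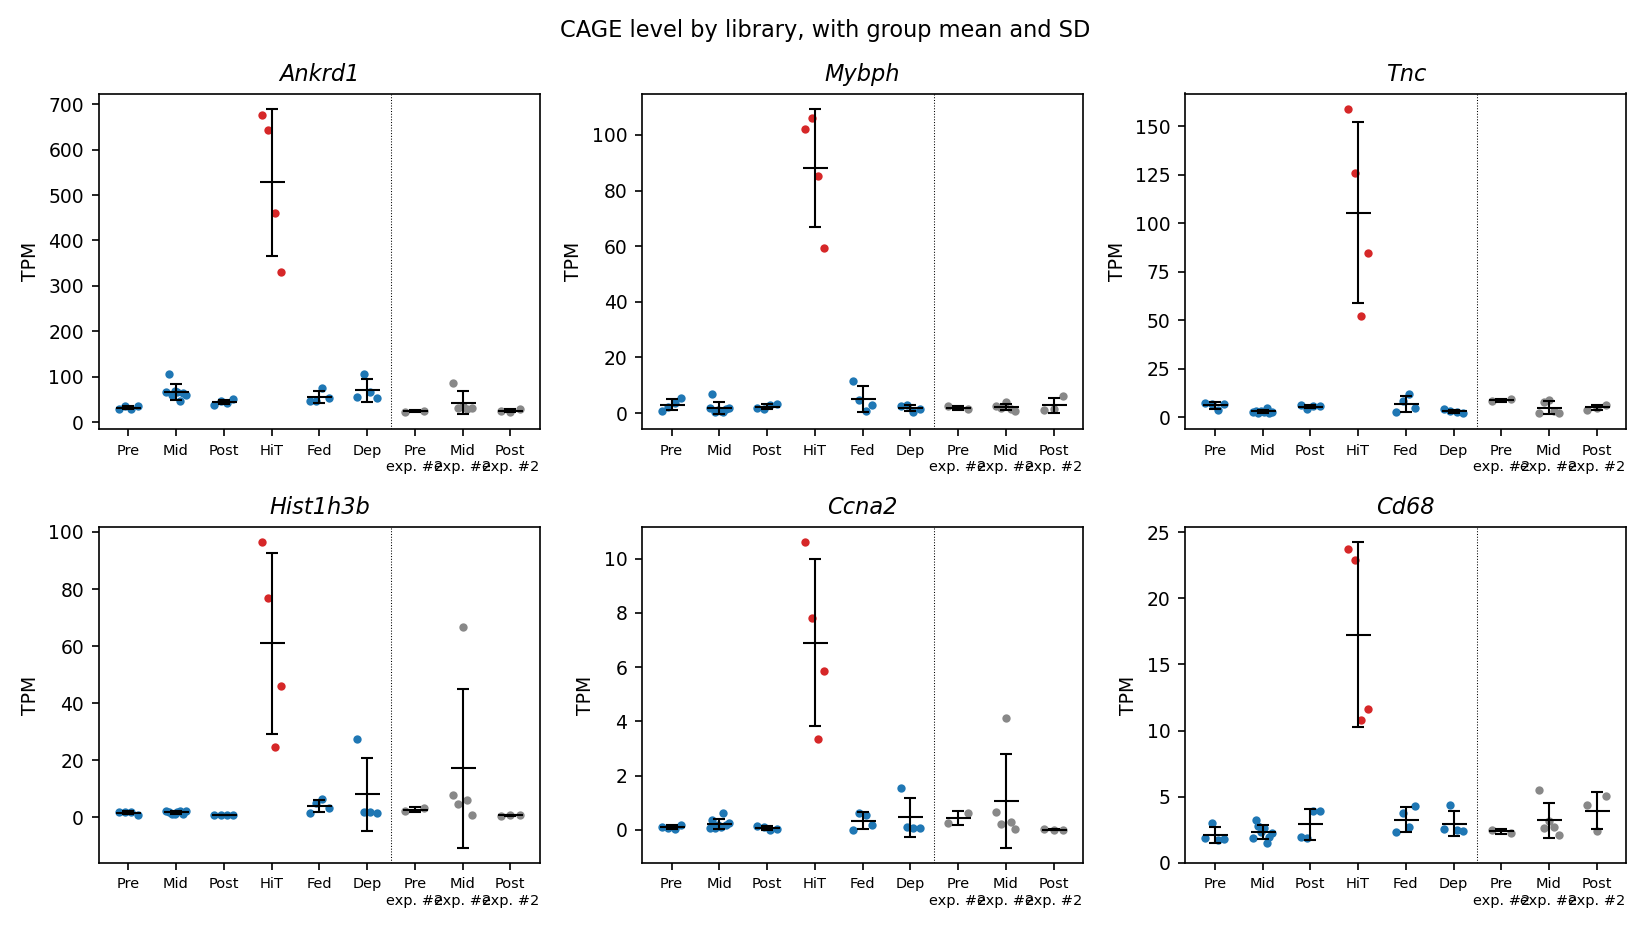
Level in TPM of 6 members in every library, grouped by condition, with group mean and SD (black bars) and experiment #2 right of the dotted line. The 4 HiT libraries stand apart for *Ankrd1*, *Mybph*, *Tnc* and *Cd68*, while for *Hist1h3b* Dep_1 (27.3 TPM) and Mid_11 (66.7 TPM) reach the HiT range, and for *Ccna2* Mid_11 does (4.14 TPM).

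A smaller number of members belonged to fasting. *Angptl4*, a fasting-induced inhibitor of lipoprotein lipase, stood at 123, 71.5, 55.9 and 76.3 TPM in HiT, and *Acot1*, an acyl-CoA thioesterase, at 64.1, 31.2, 27 and 26.8. Both overlapped with fasted groups in the cool, as Mid held 18.5 to 91.3 TPM of *Angptl4* (median 40.6) and 7.35 to 33.7 of *Acot1* (median 23.6). These 2 were the only members among 16 clusters of the fasting list. Of 16 immediate early clusters 4 were members (*Fos*, *Junb*, *Egr2* and 1 of 2 clusters of *Atf3*). That *Atf3* cluster, of a stress-induced transcription factor, stood at 27, 17.7, 30.9 and 10.1 TPM in HiT and 1.73, 16.9, 5.74 and 3.51 in Dep, and Mid_9 of experiment #2 reached 33.9. The study names this promoter among those up in torpor, which it defined in part as higher in Mid than in HiT. Here its HiT mean was at least 1.5 times the Mid mean, as the rule requires. The cause of this difference was not tested. The second *Atf3* cluster had a ratio of 0.322. No cluster was a member among lists of lipid synthesis (17 clusters), glucocorticoid targets (14), circadian clock (18), cholesterol synthesis (8), glycolysis (19), calcium handling (13), the insulin and IGF list (12), amino acid transport (13), interferon response (4), cold-inducible RNA binding (2), or markers of adipocytes (12), smooth muscle and pericytes (6), Schwann cells (7), satellite cells (1), red blood cells (7) and slow (22) or fast (21) fibers. Members were 3.43% of all clusters, and at that share lists of these sizes would hold few members or none. Their absence therefore says little about these lists. The complement list gave 4 members of 12 clusters, antigen presentation and lysosome 6 of 14, amino acid response 2 of 9 (*Psat1* and *Mthfd2* of serine and folate metabolism), polyamine and nucleotide balance 1 of 10 and denervation 1 of 7. The complement members *C1qa*, *C1qb* and *C1qc* and the lysosome member *Ctss* are also among the macrophage markers counted above.

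**Figure D4:**
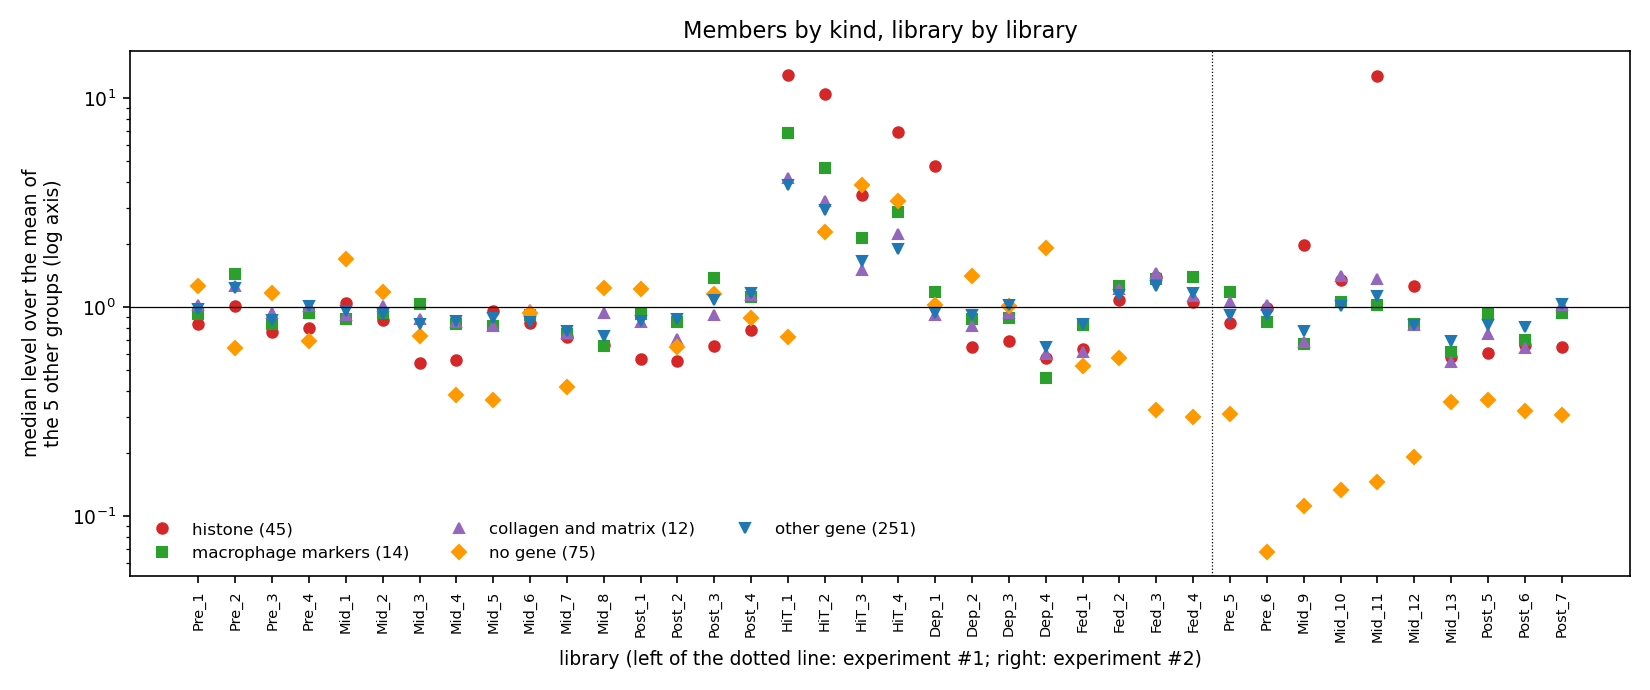
Median over members of the level in a library divided by the mean of the 5 other group means (log axis), for histone, macrophage, matrix, unannotated and other members. The group of other genes (251) includes the macrophage and matrix members. Histone members reach 13 in HiT_1, 4.77 in Dep_1 and 12.8 in Mid_11, and macrophage members stand at 2.15 to 6.83 in HiT and at most 1.45 elsewhere.

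The 75 members without an annotated start differed in how far the HiT libraries repeated. The largest ratio of all came from a cluster at chr5:122097427-122097468 (+), 3510 bp from the nearest start (*Myl2*), which held 78.6 TPM in HiT_1, 0.0, 0.0636 and 0.0 in the other HiT libraries and at most 0.0899 elsewhere. It rests on 1 library. By contrast a cluster in an exon of *Ccdc180* (chr4:45948693-45948814, +) held 11.4, 19.1, 7.34 and 9.07 TPM in HiT and at most 0.329 in the other 24. A cluster in an intron of *Slc6a19* (chr13:73684556-73684840, -) held 11.7, 10.5, 7.66 and 7.47 TPM against at most 0.33, and one between genes (chr5:72912225-72912362, +) 18, 13.7, 7.82 and 7.7 against at most 0.548. None of these 3 exceeded 0.394 TPM in experiment #2. The 75 as a whole were low there, with a median of 0.537 to 1.84 TPM per library. In the libraries of experiment #1 other than HiT that median was 1.86 to 8.12 TPM. A cluster antisense to *Gm5105* (chr3:138061804-138062137, +) held 85.7, 80.4, 51.3 and 38.6 TPM in HiT, 10.8 in Dep_2 and 103 in Mid_9 of experiment #2. In 16 of the 75 all 4 HiT libraries lay above the other 24, compared with 137 of 296 with a gene. *AY036118*, annotated as a long non-coding RNA gene, lies at a ribosomal DNA locus of chromosome 17. It ran the same way among the HiT libraries as the unannotated members, with 171, 564, 1376 and 1162 TPM in HiT and 301, 466, 283 and 703 in Dep. The part of ribosomal RNA in its tags was not tested. *Crct1*, a gene of skin keratinocytes, held 6.62, 2.67, 1.21 and 2.22 TPM in HiT and at most 0.0682 in the other 24, but 20.3 in Mid_11.

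Set against experiment #2, the HiT mean that had chosen the members was at least 1.5 times each of the 3 group means in 309 of the 371 members, beside 12.6% of all clusters (with at least 1 TPM in HiT), a difference that the selection on HiT brings with it. Without Mid_11 the count was 321. In 200 members every library of experiment #2 lay below every HiT library. In 83 a library of experiment #2 lay above the HiT mean, and Mid_11 was the highest in 56 of these. The shares of all clusters for the counts of 200 and 83 were not computed, and the selection on HiT bears on both. The control groups of experiment #2 were sequenced apart from the HiT libraries.

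The members were next followed through the comparisons between groups other than HiT. Tags of all clusters were fitted in edgeR within each experiment, where in experiment #1 HiT libraries entered only the shared estimate of spread and the scaling, and a member was called at a Benjamini-Hochberg FDR below 0.05. In experiment #1 these libraries had entered the rule as ceilings, so only experiment #2 is wholly apart from it. P-values measure the spread between these mice. From Pre to Mid in experiment #1, 27 members rose (7.28% of 371, against 15.4% of all clusters) and 41 fell (11.1%, against 14.8%), with a median log2 fold change of -0.12 over members and 0.01 over all. From Mid to Post 53 rose (14.3%, against 17.5%) and 27 fell (7.28%, against 17.5%), with medians of 0.11 and -0.01. These 2 comparisons share the Mid libraries. In Dep against Fed, 2 groups in the cool without torpor, 82 were higher (22.1%, against 18.6%) and 41 lower (11.1%, against 20%), with medians of 0.14 and 0.00. In experiment #2, 10 rose from Pre to Mid (2.7%, against 5.3%) and 4 fell (1.08%, against 4.44%), with medians of 0.16 and 0.00, while from Mid to Post 8 rose (2.16%, against 7.73%) and 26 fell (7.01%, against 8.65%), with medians of -0.10 and -0.01. The shares of members called were thus below those of all clusters except for higher levels in Dep. In experiment #1 the rule and the spread among HiT libraries bear on these shares, so they are given only as a description. Without HiT_3 the calls from Mid to Post among members with other genes went from 51 higher and 24 lower to 59 and 27. Without TMM scaling the median of all clusters in Dep against Fed shifted to -0.23 and the members split into 53 higher and 47 lower.

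**Figure D5:**
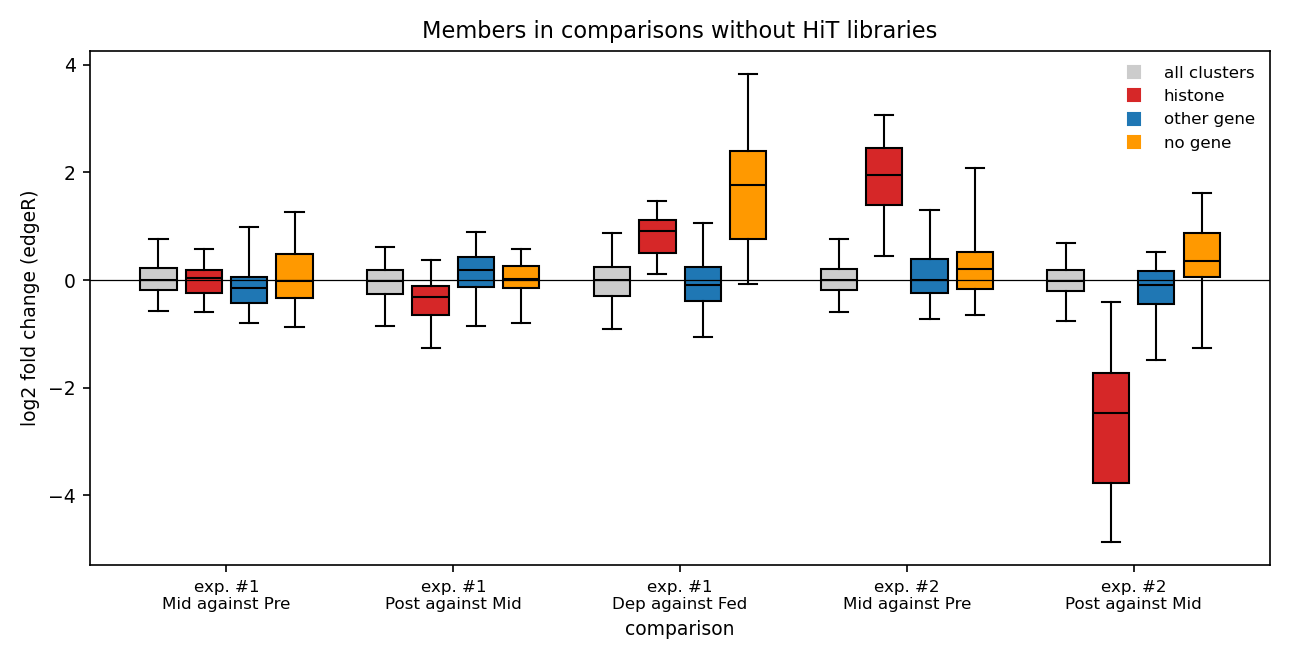
Log2 fold changes of members in the 5 comparisons between groups other than HiT, by kind (45 histone members, 251 with other genes, 75 with no gene) beside all clusters. Boxes give median and quartiles and whiskers the 5th and 95th percentiles. Medians of histone members are 1.96 and -2.48 in experiment #2, and that of members with no gene is 1.77 in Dep against Fed.

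The higher levels in Dep came mainly from unannotated members. Of the 75, 45 were higher in Dep than Fed and none lower, where 18.6% and 20% of all clusters were. Their median log2 fold change was 1.77, while members with other genes split into 35 higher and 41 lower. Without Dep_4 the 45 fell to 29. The 75 summed to 1433, 1678, 1111 and 2347 TPM in Dep_1 to Dep_4, at TMM factors of 0.924, 0.939, 1.09 and 0.797. In Fed_1 to Fed_4 they summed to 691, 812, 613 and 569 TPM, at factors of 1.03, 0.978, 1.21 and 1.15. How far this difference follows the make-up of single libraries was not tested. From Pre to Mid in experiment #1 6 of these 75 rose, below the share of 15.4% over all clusters. The count was 3 without Pre_1, Pre_2 or Pre_3 and without TMM. *AY036118*, at the ribosomal DNA locus, was also higher in Dep, by 2.43 ± 0.72 (SE, FDR 0.00952), with 102, 133, 82.7 and 64.0 TPM in Fed. Of the 45 histone members, 2 were higher in Dep, where 18.6% of all clusters were, at a median of 0.92 over the family. Without Dep_1 the median was -0.49, with 0 higher and 10 lower in Dep, while 16 were higher without Dep_2, 20 without Dep_3 and 16 without Dep_4. It was 1 to 7 without another library, 9 in DESeq2 and 0 without TMM. No histone member was called from Pre to Mid in either experiment, where 0 and 2 passed an unadjusted p of 0.05 in edgeR and DESeq2 called 0 in both. From Mid to Post in experiment #2 4 of the 45 fell in edgeR (25 in DESeq2), a count near the 8.65% of all clusters that fell in edgeR. The 4 included *Hist1h3g*, by 5.36 ± 1.65 (SE, FDR 0.0495), and *Hist1h3b*, by 5.03 ± 1.45 (FDR 0.039). Without Mid_11 18 fell, at a median of -1.18 in place of -2.48. The count was 19 without Mid_13, 11 without Mid_10, 1 without Mid_9 or Mid_12 and 0 without any 1 of the Pre or Post libraries. With sequencing lane as a term none did, at a median of -0.09, since all Post libraries and only 1 Mid library ran on lane 4.

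From Pre to Mid 10 members were called in the same direction in both experiments, 7 up (1.89%, against 4.67% of all clusters) and 3 down (0.809%, against 3.54%). *Angptl4* stood at 13, 7.46, 4.37 and 4.29 TPM in Pre and 2.75, 3.88, 10.6 and 5.86 in Post, all below the lowest Mid library. It rose by 2.62 ± 0.45 (log2, SE, FDR 7.55e-05) and by 3.15 ± 0.37 (FDR 0.00107) in experiment #2. *Acot1* rose by 3.24 ± 0.31 and 3.13 ± 0.35, and *Lox*, which crosslinks collagen, by 1.16 ± 0.21 and 1.43 ± 0.13. *Hsp25-ps1* rose by 0.99 ± 0.13 and 1.21 ± 0.31, whereas *Hspb1* passed the threshold in experiment #1 (0.98 ± 0.13, FDR 4.24e-06) and not in experiment #2 (1.66 ± 0.56, FDR 0.0888). *Cd163* and *Cldn5* were also among those that rose. Of these, all but *Cd163* were also higher in Dep than in Fed, by 2.18 for *Angptl4*, 3.23 for *Acot1*, 1.77 for *Lox*, 1.19 for *Hsp25-ps1* and 0.84 for *Cldn5*.

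*Prkg1*, a cGMP-dependent protein kinase, and *Tspan9*, a tetraspanin, fell in the fasted cool. *Prkg1* held 6.24, 13.4, 9.68 and 8.42 TPM in Pre, 0.91 to 4.56 with a median of 1.87 in Mid and 7.8, 8.2, 12.3 and 9.41 in Post. Fed held 11.6, 10.7, 19.3 and 9.71 TPM and Dep 3.16, 1.73, 0.292 and 1.0, against 37.1, 35.0, 22.1 and 19.3 in HiT. The fasted groups in the cool thus lay lowest and the fasted warm group highest, and the lowest HiT library only just above the highest Fed library. From Pre to Mid it fell by 1.93 ± 0.35 (FDR 0.00019) and 2.14 ± 0.32 in experiment #2 (FDR 0.00316), and it was lower in Dep than Fed at -2.79 ± 0.46. *Tspan9* fell by 1.11 ± 0.24 and 1.43 ± 0.25, and *Cyba*, a subunit of the phagocyte oxidase, by 0.40 ± 0.15 and 0.50 ± 0.13.

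Members among the muscle, matrix and macrophage genes did not share 1 direction in the cool. *Ankrd1* rose from Pre to Mid by 1.16 ± 0.17 (FDR 9.62e-06) and fell from Mid to Post by 0.62 ± 0.16, and in experiment #2 its change of 0.88 ± 0.42 did not pass (FDR 0.229). *Tnc* fell from Pre to Mid by 0.98 ± 0.29 (FDR 0.0111), returned by 0.87 ± 0.29 and was lower in Dep than Fed at -0.96 ± 0.34. *Mybph* passed in none of the 5 comparisons, with FDR 0.182 to 0.893. Of the 12 matrix member clusters, 1 rose and 2 fell from Pre to Mid, and 1 was higher and 5 lower in Dep than Fed. Over all clusters 15.4% rose and 14.8% fell from Pre to Mid, and 18.6% were higher and 20% lower in Dep, so that the Pre to Mid counts of these 12 lay near the background. Of the 14 macrophage members 1 rose (*Cd163*, by 0.93 ± 0.24) and 2 fell (*Aif1*, by 1.76 ± 0.42, and *Pf4*, by 0.63) from Pre to Mid, and 3 were lower in Dep than Fed, again near those shares. *Ccl2* fell by 2.68 ± 0.54 from Pre to Mid (FDR 0.000461), where Pre held 9.23, 1.26, 0.49 and 3.91 TPM. The *Atf3* cluster rose by 3.27 ± 0.93 from Pre to Mid (FDR 0.00898) and was higher in Dep than Fed by 4.52 ± 0.92 (FDR 0.000466).

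Some genes carried several members. *Actb*, cytoplasmic actin, had all 3 of its clusters among the members, the main one at its start with 1209, 865, 469 and 573 TPM in HiT and the others at 6.84, 8.57, 5.21 and 10.8 and at 3.87, 3.73, 3.75 and 5.16 TPM. The main cluster overlapped with Fed, where Fed_3 held 632 TPM. *Lsp1*, a leukocyte actin-binding protein, had 3 members of 4 clusters and *Bgn*, the matrix proteoglycan biglycan, 2 of 2. Clusters of members with a gene were 228 bp wide at the median, compared with 279 bp for all clusters with a gene and 311 bp for histone members. Their highest peak lay within 50 bp of the annotated start in 78.0%, compared with 83.2% of all.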

How the data were processed

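The authors mapped nAnT-iCAGE tags with BWA and HISAT2 to mm10 (GRCm38), grouped them into clusters, and deposited a table of raw tag counts and of TPM, which scales the counts to the depth of each library. The versions of these tools are not given in the sources used here. Groups and experiments came from the labels. Clusters were assigned to a gene of GENCODE M21 whose annotated 5′ end lay within 500 bp on the same strand. The rule was applied to group means of the deposited TPM. Counts were fitted with the quasi-likelihood test of edgeR 4.0.16 (limma 3.58.1, R 4.3.3) with TMM scaling over all clusters, for each experiment apart, with Benjamini-Hochberg adjustment at 0.05. The tests were checked on simulated counts. Tables were made in Python 3.11.15 with pandas 2.3.3 and scipy 1.17.1.

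The members and lists were chosen with earlier results of these data known. Members named were the 15 of largest ratio and 10 of highest HiT mean with a gene, those in the gene lists, those called in both experiments and those nearest the thresholds. *Spi1*, *Lsp1*, *Hist1h3b*, *Hist1h2ao*, the group of histone genes and the unannotated clusters described were chosen after their values were seen. Some items are not reported here. Alternatives were DESeq2 1.42.0, a low-count filter, no TMM, the replicate number as a block, sequencing lane, leaving out each library, and other forms of the rule. The ratios of named members after TMM scaling were an alternative chosen after seeing the data. Depth and its range are given with the results, and fold changes are on the log2 scale.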

Additional observations from a re-analysis of the deposited data

Results flagged for a closer look

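In each group of 4 to 10 libraries, the named members were checked for a library whose gap to its nearest neighbour was large for the range of the group. Of 210 such groups 34 held one. The groups reuse the same libraries and the cutoffs assume normally spread levels, so no chance rate is set beside this count. The causes were not tested. Most fell on 2 libraries. Dep_1 stood apart from the other 3 Dep libraries for *Ccna2* (1.56 TPM), *Birc5* (1.86), *Hist1h3g* (6.25), *Hist1h4b* (5.12), *Hist1h2an* (7.31), *Hist1h2ah* (19.7) and *Hist1h2bm* (3.06), and for the median of the histone members (26.3 TPM, against 2.93 to 3.43). Mid_11 stood apart from the other 4 Mid libraries of experiment #2 for *Ccna2* (4.14 TPM), *Cdc20* (5.49), *Birc5* (5.13), *Hist1h3g* (40.9), *Hist1h4b* (12.3), *Hist1h2an* (44.9), *Hist1h2ah* (61.9), *Hist1h2bm* (17.7), *Cthrc1* (5.13) and *Crct1* (20.3), and for the histone median (61.9 TPM, against 2.07 to 9.36).

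Mid_9 was high for *Mustn1* (396 TPM), *Hspb1* (277), *Ankrd1* (87.0) and *Gm8818* (1.74), and Mid_13 for *AY036118* (477 TPM, against 61.5 to 130). In experiment #1 Mid_2 was high for *Ankrd1* (107 TPM, against 45.6 to 68.1) and *Mybph* (6.72), and Mid_8 for *Gm8818* (1.29). Mid_6 was low for *Hspb1* (203 TPM, against 357 to 417) and *Hsp25-ps1* (120, against 203 to 234). Post_4 was high for *Mustn1* (336 TPM), Pre_2 for *Hist1h4b* (2.44) and Mid_10 of experiment #2 for *Mmp19* (1.79). For *Crct1* the levels of 0 in Pre_3 and 0.0682 TPM in Post_4 rest on very few tags.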

How the results depend on the processing

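The number of members moved with the rule. A ratio of 2 left 201 of 371, and leaving out 1 library gave 292 (without HiT_1) to 425 (without HiT_4). Scaling by TMM (446), medians (323), a minimum of 5 TPM (361) and libraries with no code letter (308) stayed within 1.5 times. Held-out HiT libraries lay above each other group mean in 86.3% of cases, and in 90.1% after TMM.

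Of the 5 counts of called members, that of Mid to Post in experiment #1 (80) fell to 42 without TMM, where 29 rose and 13 fell. In experiment #2 the count of Mid to Post (34) was 68 with DESeq2 and 6 with sequencing lane as a term. Leaving out 1 library gave 43 (without Pre_2) to 85 for Pre to Mid (68 in all libraries), 52 (without Post_3) to 96 for Mid to Post and 97 to 135 for Dep against Fed (123) in experiment #1. In experiment #2 it gave 5 (without Pre_5 or Pre_6) to 17 for Pre to Mid (14), with 7 without Mid_12, and 14 (without Post_5) to 54 (without Mid_13) for Mid to Post, with 22 without Mid_12, 18 without Post_6 and 20 without Post_7. A lone Pre library was assumed to vary like the other groups. Without Dep_1 the change of *Hist1h2ab* in Dep against Fed turned from 1.60 (edgeR FDR 0.0357) to -0.33 (FDR 0.523), and it reached 1.93 without Dep_2. The other causes were not tested.

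With the replicate number as a block, 56 members were called from Pre to Mid, 68 from Mid to Post and 119 in Dep against Fed. Deviations of same-numbered libraries correlated at -0.27 to 0.41 and in no comparison above 0.1 in all 4 pairs. These values cannot settle whether some same-numbered libraries share more than a number. No paired analysis was possible in experiment #2 because Mid, which is in both comparisons, shares no replicate number with Pre or Post there. Of 103 calls of named members, 57 held in every alternative, and 18 were lost without TMM, 15 of 28 with lane, 7 of 75 with the block, 1 with a low-count filter and 0 with DESeq2.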
